A study of Homo sapiens with 2 samples.

Results

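The 39 mitosis genes described here encode proteins of mitotic entry, the spindle, the kinetochore, the checkpoint and cytokinesis. The list was drawn up by symbol with a rule that uses no measured value, though with earlier results of these data known. Each symbol matched 1 gene among the 58051 in the count tables. The cells were BEAS-2B, a line of immortalised epithelial cells from human bronchus. RNA came from BEAS-2B cells overexpressing the calcium-permeable channel gene TRPV3 (genotype TRPV3-OE, 1 library) and from BEAS-2B cells with the genotype label WT (1 library). TRPV3-OE cells were between passage 4 and 8 and WT cells between passage 20 and 30, so passage cannot be told apart from genotype. Both were plated at equal densities in LHC-9 medium on a coat of collagen and fibronectin and collected at confluence, with no other treatment in the labels used. How the overexpressing cells were made, and whether they are a single clone, is not given in the sources used here.

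Gene counts totalled 17477953 in the TRPV3-OE library and 17450658 in the WT library. TRPV3 itself had 54077 counts in the TRPV3-OE library against 26 in the WT library. The 7 epithelial keratin and adhesion markers had counts in both libraries and summed to 7253 CPM (a gene's counts scaled to library size) in TRPV3-OE and 7522 CPM in WT. The 6 fibroblast markers summed to 16.4 CPM in TRPV3-OE and 24.4 CPM in WT, and the 4 endothelial markers to 3.26 CPM in TRPV3-OE and 16.7 CPM in WT. Of the fibroblast sums, COL1A1 gave 16.0 CPM in TRPV3-OE and 23.9 CPM in WT. Of the endothelial sums, CDH5 gave 1.97 CPM in TRPV3-OE and 15.6 CPM in WT. The 5 immune markers summed to 26.0 CPM in TRPV3-OE and 4.32 CPM in WT, nearly all from CD14, while LUM, KDR, PTPRC and CD3E had no count in either library, where the limit that a count of 0 allows is 3 counts. The part of other cell types in the results was not tested. Because each genotype has a single library, differences below have no replicate check and carry no p-value. All intervals are exact at 95% and hold the error of counting alone, and reads copied by PCR without molecular identifiers are not separate molecules.

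As background, a cell enters mitosis when cyclin B bound to the kinase CDK1 becomes active, after cyclin A has carried it through S and G2 phase. Polo-like and Aurora kinases then build the spindle, and the spindle checkpoint holds back the anaphase-promoting complex (APC/C), a ubiquitin ligase, until chromosomes are attached. Transcripts of these proteins accumulate late in the cycle, when the DREAM repressor complex has left their promoters and B-MYB and FOXM1 act there. DREAM and B-MYB complexes bind a promoter element called the cell cycle homology region (CHR), and the factor NF-Y binds nearby CCAAT boxes. In bulk RNA a smaller share of cells in mitosis and less of a transcript per cell cannot be told apart.

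Promoter sequence is shown for cyclin A2, the member with the largest difference between the libraries, and for the other cyclins of the list. CKS2 and CDC20, the next lowest ratios, and NUSAP1, the highest, were added after their values were seen. Each stretch holds the 250 bases before the RefSeq transcription start, 5′ to 3′ on the gene's strand, in build GRCh38.p14. Capitals mark TTTGAA or its CHR variants TTCGAA and CTTGAA, and CCAAT, on either strand. They lie at chr4:121823884-121824133 (minus strand, CCNA2), chr5:69166900-69167149 (plus strand, CCNB1), chr15:59104896-59105145 (plus strand, CCNB2), chr9:89310945-89311194 (plus strand, CKS2), chr1:43358731-43358980 (plus strand, CDC20) and chr15:41332631-41332880 (plus strand, NUSAP1).
CCNA2: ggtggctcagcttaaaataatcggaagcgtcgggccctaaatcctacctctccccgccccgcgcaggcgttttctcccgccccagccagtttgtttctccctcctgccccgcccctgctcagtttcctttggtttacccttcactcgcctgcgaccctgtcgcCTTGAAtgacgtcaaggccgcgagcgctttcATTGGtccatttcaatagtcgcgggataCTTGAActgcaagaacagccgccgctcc
CCNB1: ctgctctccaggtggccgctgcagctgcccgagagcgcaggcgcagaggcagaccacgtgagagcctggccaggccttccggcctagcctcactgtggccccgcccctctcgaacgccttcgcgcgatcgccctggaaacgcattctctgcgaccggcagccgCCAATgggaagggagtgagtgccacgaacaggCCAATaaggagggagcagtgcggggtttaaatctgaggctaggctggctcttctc
CCNB2: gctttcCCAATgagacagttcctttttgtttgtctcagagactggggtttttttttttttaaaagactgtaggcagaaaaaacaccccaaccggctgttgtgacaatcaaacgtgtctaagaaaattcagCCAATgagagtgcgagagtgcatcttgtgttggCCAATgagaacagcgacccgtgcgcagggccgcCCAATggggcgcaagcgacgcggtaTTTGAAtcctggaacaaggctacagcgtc
CKS2: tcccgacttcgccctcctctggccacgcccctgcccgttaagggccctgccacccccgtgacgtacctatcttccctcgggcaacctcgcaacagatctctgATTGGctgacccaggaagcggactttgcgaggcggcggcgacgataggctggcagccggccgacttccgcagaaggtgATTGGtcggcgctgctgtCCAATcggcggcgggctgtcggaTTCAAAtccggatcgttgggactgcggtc
CDC20: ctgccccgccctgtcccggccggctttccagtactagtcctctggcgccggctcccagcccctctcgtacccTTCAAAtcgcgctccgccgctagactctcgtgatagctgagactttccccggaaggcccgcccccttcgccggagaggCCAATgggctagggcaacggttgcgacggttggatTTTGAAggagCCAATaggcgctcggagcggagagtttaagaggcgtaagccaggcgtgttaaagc
NUSAP1: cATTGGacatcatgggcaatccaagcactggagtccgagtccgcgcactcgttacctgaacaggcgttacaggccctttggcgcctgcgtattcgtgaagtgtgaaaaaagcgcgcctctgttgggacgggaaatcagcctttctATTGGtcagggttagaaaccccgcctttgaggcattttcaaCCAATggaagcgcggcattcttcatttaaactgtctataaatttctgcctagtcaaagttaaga

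The CCNA2 stretch held CTTGAA at 2 places, with first bases 87 and 28 bases before the start, and 1 CCAAT box on the opposite strand 56 bases before it. CCNB1 held 2 CCAAT boxes, 87 and 55 bases before the start, and none of the 3 CHR spellings searched. Other spellings were not looked for in any window. CCNB2 held 4 CCAAT boxes and TTTGAA 29 bases before the start, the same distance at which CKS2 held it on the opposite strand. CDC20 held TTTGAA at 2 places. The TTTGAA of NUSAP1 began 14 bases into the transcript and is therefore not in the stretch above, which held 3 CCAAT boxes.

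RefSeq promoter windows, from 250 bases before to 50 bases after the start, matched 32 of the 39 members by symbol. Of these 32 genes 24 (75%) held TTTGAA in at least 1 window, compared with 18.2% of 27305 genes with a window. CCAAT was in 26 (81.2%), compared with 39.7% of the 27305. Both were in 1 window of 20 members (62.5%), compared with 7.26%. TTCGAA was in 2 members (6.25%, compared with 1.82%) and CTTGAA, added after the sequence of CCNA2 was seen, in 3 (9.38%, compared with 13.4%). Over all windows, CCAAT matches had a median position of 78.5 bases before the start, and CHR matches of 28 bases before it. A site that lies in overlapping windows of a gene was counted in each, at its distance from that window's start. The 24 members with TTTGAA had a median log2 ratio of TRPV3-OE over WT of −0.23 and the 8 without it −0.36. Any of the 3 CHR spellings was in 27 members (84.4%, compared with 29.1%). Their median was −0.29, and that of the 5 members with none of them −0.30. The 26 members with CCAAT had a median of −0.31 and the 6 without it 0.04. These are matches of letters, and binding was not measured.

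**Figure D1:**
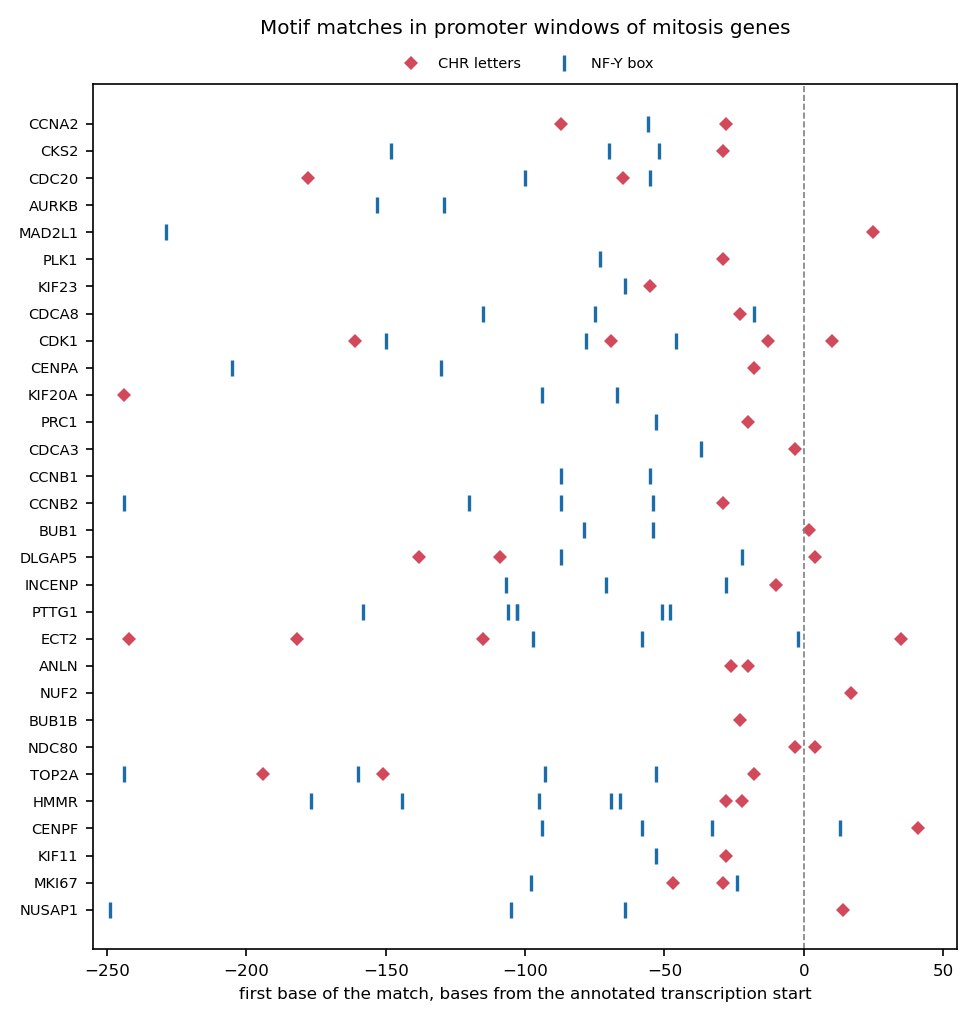
Position of motif matches in the promoter windows of 30 mitosis genes that held any, with the first base of each match in bases from the annotated start (dashed line) and genes ordered from the lowest log2 ratio of TRPV3-OE over WT at the top. Diamonds are the 3 CHR spellings and ticks the NF-Y (CCAAT) boxes, which had median positions of 28 and 78.5 bases before the start, and KIF2C and CENPE held neither. A site in overlapping windows of a gene is shown and counted for each.

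The mitosis genes were expressed at high levels in both libraries, and all but CCNA2 differed by less than 2-fold between them. All 39 had at least 500 counts summed over both libraries, so the filter of 100 counts for measured genes removed none. Together they had 137895 counts in the TRPV3-OE library and 149146 in the WT library. That is 7744 CPM (7703 to 7785) in TRPV3-OE and 8708 CPM (8664 to 8752) in WT, a 1.12-fold lower sum in TRPV3-OE with a log2 ratio of −0.17 (−0.18 to −0.16). The log2 ratio was −0.11 to −0.13 under 3 other scalings and −0.23 when levels are first divided by gene length.

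The median log2 ratio over the 39 genes was −0.26, beside −0.03 over 11466 measured genes and −0.04 over the 8858 genes with at least 500 counts. The ratio was below 1 in 28 of the 39 genes (71.8%), against 53% of measured genes. It was below 1 in 26 of 39 by total counts, against 48% of measured genes, and in 26 of 39 by upper quartile, against 47.5%. A call at 2-fold required the ratio to pass 2-fold and its interval to lie on that side of 1. CCNA2 alone was called lower (2.56% of members, against 5.35% of measured genes), and no member was called higher, against 5.31%. At 1.5-fold 7 members (17.9%) were lower, against 14.2% of measured genes, and NUSAP1 (2.56%) was higher, against 12.7%. With a smaller threshold, 14 members (35.9%) were at least 20% lower, against 26.6% of measured genes, and MKI67 and NUSAP1 (5.13%) were at least 25% higher, against 22.7%. Among genes with at least 500 counts those shares were 25.7% lower and 20.3% higher. Total counts, DESeq2 size factors and upper quartile each gave 14 lower and 4 higher, with CENPF and KIF11 added to the higher genes. Of measured genes 23.4% were lower and 25.8% higher by total counts, 24.1% and 25.2% by DESeq2 size factors, and 23.1% and 26% by upper quartile. The interquartile range of the log2 ratio was 0.55 over the members, close to the 0.58 of genes with at least 500 counts.

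**Figure D2:**
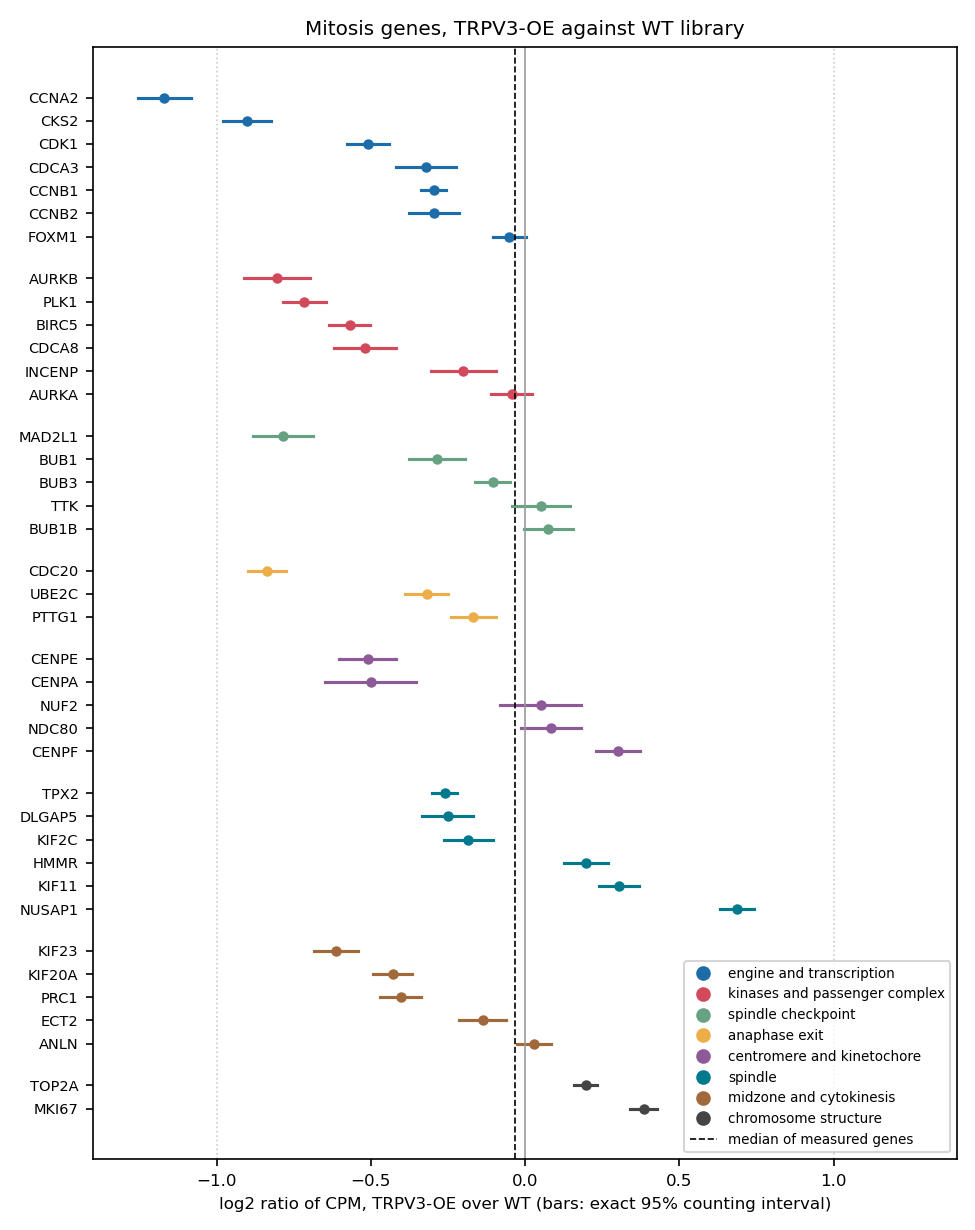
Log2 ratio of CPM in TRPV3-OE over WT for each of the 39 mitosis genes, grouped by role, with points for the ratio and bars for the exact 95% counting interval. The dashed line is the median of measured genes (−0.03) and dotted lines mark 2-fold. CCNA2 lies beyond 2-fold, while NUSAP1 and MKI67 reach farthest to the right.

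Of 7 genes (the cyclins, CDK1, CKS2, CDCA3 and FOXM1), 3 were at least 20% lower in TRPV3-OE, against 26.6% of measured genes. The other 4 did not pass that threshold. The median log2 ratio was −0.32, or −0.48 with the median of each gene's 50 nearest measured genes subtracted. All 7 ratios were below 1, except that FOXM1 passed to the other side by total counts and upper quartile. Cyclin A2 (CCNA2, ENSG00000145386, chr4:121816444-121823933, minus strand, GRCh38.p7), which activates CDK2 and then CDK1, had 1594 counts in TRPV3-OE and 3447 in WT. Its level was 89.5 CPM in TRPV3-OE and 201 CPM in WT, a 2.25-fold lower level with a log2 ratio of −1.17 (−1.26 to −1.08). Of all measured genes 3.83% had a lower ratio. With the median of its 50 nearest measured genes subtracted, its log2 ratio was −0.60 and did not pass 2-fold. The mitotic cyclins differed less. Cyclin B1 (CCNB1), the main mitotic partner of CDK1, had 513 CPM in TRPV3-OE and 630 CPM in WT (log2 ratio −0.30, −0.34 to −0.26). Cyclin B2 (CCNB2), found with the Golgi apparatus, had 123 CPM in TRPV3-OE and 151 CPM in WT, also at −0.30 (−0.38 to −0.21). The ratio of cyclin B1 to cyclin B2 transcripts in TPM (levels divided by gene length) was thus 4.55 in both libraries, while that of cyclin A2 to cyclin B1 was 0.160 in TRPV3-OE and 0.292 in WT.

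CDK1, the kinase of mitotic entry, had 173 CPM in TRPV3-OE and 246 CPM in WT, a log2 ratio of −0.51. CKS2 (ENSG00000123975, chr9:89311198-89316703), a small subunit that docks CDK1 on its substrates, had 115 CPM in TRPV3-OE and 216 CPM in WT. At 1.87-fold lower (log2 ratio −0.90, −0.98 to −0.82) it was second to CCNA2 among the members. CDCA3, an adaptor for the breakdown of the CDK1-inhibiting kinase WEE1, had 89.0 CPM in TRPV3-OE and 111 CPM in WT (log2 ratio −0.32). FOXM1, a transcription factor that drives many of the listed genes, had 311 CPM in TRPV3-OE and 322 CPM in WT. Its log2 ratio of −0.05 (−0.11 to 0.00) held 0 in its interval, and in TPM the order of the libraries turned round (239 in TRPV3-OE and 236 in WT).

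The kinases and the chromosomal passenger complex had a median log2 ratio of −0.54, with 4 of 6 genes at least 20% lower, against 26.6% of measured genes. With neighbours subtracted the median was −0.29, and BIRC5 (−0.29) and CDCA8 (−0.27) no longer passed that threshold. All 6 ratios were below 1, except that AURKA passed to the other side by total counts and upper quartile. Aurora B (AURKB), the kinase of the passenger complex that corrects faulty attachments, had 64.4 CPM in TRPV3-OE and 112 CPM in WT, 1.74-fold lower (log2 ratio −0.80, −0.91 to −0.70). Survivin (BIRC5), which places the complex at the centromere, had 176 CPM in TRPV3-OE and 261 CPM in WT (log2 ratio −0.57, −0.64 to −0.50). Borealin (CDCA8), its partner there, had 78.9 CPM in TRPV3-OE and 113 CPM in WT (−0.52, −0.62 to −0.42). INCENP, the scaffold that joins them to Aurora B, had 77.4 CPM in TRPV3-OE and 88.9 CPM in WT (log2 ratio −0.20, −0.31 to −0.09), which lies outside the intervals of the other 3 subunits. PLK1, the polo-like kinase of centrosomes and kinetochores, had 153 CPM in TRPV3-OE and 252 CPM in WT, 1.64-fold lower. Aurora A (AURKA), which works at the spindle poles, had 207 CPM in TRPV3-OE and 213 CPM in WT, and the interval of its log2 ratio of −0.04 (−0.11 to 0.02) held 0.

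The spindle checkpoint genes were divided. MAD2L1, whose product MAD2 binds and blocks CDC20, had 77.1 CPM in TRPV3-OE and 133 CPM in WT, 1.72-fold lower (log2 ratio −0.78, −0.88 to −0.69). BUB1, a kinase that recruits the other checkpoint proteins, had 101 CPM in TRPV3-OE and 123 CPM in WT (log2 ratio −0.29), and its partner BUB3 had 278 CPM in TRPV3-OE and 299 CPM in WT (−0.11). BUBR1 (BUB1B), which joins MAD2 in the inhibitory complex, had 151 CPM in TRPV3-OE and 144 CPM in WT, and the interval of its log2 ratio of 0.07 held 0. The kinase MPS1 (TTK), which starts checkpoint signalling, had 107 CPM in TRPV3-OE and 103 CPM in WT, and the interval of its log2 ratio of 0.05 held 0 as well. The median of the 5 genes was −0.11, or −0.20 with neighbours subtracted.

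Of the APC/C genes that act at anaphase, CDC20 (ENSG00000117399, chr1:43358955-43363203), the activator that the checkpoint blocks, had 188 CPM in TRPV3-OE and 335 CPM in WT. This was 1.78-fold lower (log2 ratio −0.84, −0.90 to −0.77). The ubiquitin-conjugating enzyme UBE2C had 174 CPM in TRPV3-OE and 218 CPM in WT (log2 ratio −0.32), and securin (PTTG1), the inhibitor of separase that APC/C destroys, 163 CPM in TRPV3-OE and 183 CPM in WT (−0.17). The ratio of CDC20 to MAD2L1 transcripts in TPM was 6.86 in TRPV3-OE and 7.11 in WT, so this pair kept nearly the same proportion. That did not extend to BUB1B of the same inhibitory complex, at 127 TPM in TRPV3-OE and 115 TPM in WT. CDC20 had 346 TPM in TRPV3-OE and 590 TPM in WT. With neighbours subtracted, the log2 ratio was −0.48 for CDC20 and −0.22 for MAD2L1.

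Centromere and kinetochore genes ranged on both sides of 0, with a median of 0.05, or −0.07 with neighbours subtracted. CENPE, a kinesin that moves chromosomes to the spindle equator, had 93.1 CPM in TRPV3-OE and 133 CPM in WT (log2 ratio −0.51), and CENPA, the histone H3 variant that marks centromeres, 36.7 CPM in TRPV3-OE and 51.8 CPM in WT (−0.50). CENPF, a large outer kinetochore protein, had 208 CPM in TRPV3-OE and 169 CPM in WT (log2 ratio 0.30, 0.23 to 0.37). Its neighbours had a median of 0.29, which left a log2 ratio of 0.01 after subtraction. NDC80, a subunit of the complex that grips microtubules, had 99.5 CPM in TRPV3-OE and 93.8 CPM in WT (log2 ratio 0.08). NUF2, its partner in that complex, had 980 counts in TRPV3-OE and 910 counts in WT (log2 ratio 0.05). Both intervals held 0, and the TPM ratio of NDC80 to NUF2 was 1.69 in TRPV3-OE and 1.65 in WT.

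The spindle genes split evenly around a median of 0.01, or 0.08 with neighbours subtracted. NUSAP1 (ENSG00000137804, chr15:41332694-41381050), which bundles microtubules near chromosomes, had 400 CPM in TRPV3-OE and 248 CPM in WT. It had the highest ratio of the members, 1.61-fold (log2 ratio 0.69, 0.63 to 0.74), and 90.0% of measured genes lay below it. The plus-end kinesin Eg5 (KIF11), which pushes spindle poles apart, had 243 CPM in TRPV3-OE and 197 CPM in WT (log2 ratio 0.30), and HMMR, a spindle-pole protein also known as a hyaluronan receptor, 202 CPM in TRPV3-OE and 177 CPM in WT (0.20). TPX2, the activator of Aurora A, had 489 CPM in TRPV3-OE and 586 CPM in WT (−0.26). DLGAP5, which stabilises kinetochore fibres, had 123 CPM in TRPV3-OE and 146 CPM in WT (−0.25). KIF2C, a kinesin that takes microtubules apart, had 135 CPM in TRPV3-OE and 154 CPM in WT (−0.18). With neighbours subtracted KIF2C stood at 0.10, on the other side of 0, and KIF11 at 0.06. NUSAP1 then stood at 0.58, HMMR at 0.14, TPX2 at −0.19 and DLGAP5 at −0.53.

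Midzone and cytokinesis genes had a median of −0.40, or −0.21 with neighbours subtracted, and 3 of 5 were at least 20% lower, against 26.6% of measured genes. KIF23, the motor of the centralspindlin complex, had 148 CPM in TRPV3-OE and 226 CPM in WT, 1.53-fold lower (log2 ratio −0.61, −0.68 to −0.54). KIF20A, which carries the passenger complex to the midzone, had 199 CPM in TRPV3-OE and 268 CPM in WT (log2 ratio −0.43). PRC1, which crosslinks the microtubules there, had 189 CPM in TRPV3-OE and 250 CPM in WT (log2 ratio −0.40). Without subtraction of neighbours, the genes of the contractile ring lay closer to 0. ECT2, the activator of RHOA at the cleavage site, had 154 CPM in TRPV3-OE and 169 CPM in WT (−0.14). The scaffold anillin (ANLN) had 312 CPM in TRPV3-OE and 306 CPM in WT, and the interval of its log2 ratio of 0.03 (−0.02 to 0.08) held 0. With neighbours subtracted KIF23 stood at −0.68, KIF20A at −0.59, PRC1 at −0.21, ANLN at −0.18 and ECT2 at 0.025.

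Of both genes of chromosome structure, MKI67 was at least 25% higher and TOP2A did not pass that threshold. MKI67, whose product Ki-67 coats mitotic chromosomes and is the common marker of cycling cells, had 568 CPM in TRPV3-OE and 435 CPM in WT, 1.31-fold higher (log2 ratio 0.38, 0.34 to 0.43). TOP2A, which untangles sister chromatids, had 679 CPM in TRPV3-OE and 593 CPM in WT (log2 ratio 0.20, 0.16 to 0.23). With neighbours subtracted the log2 ratios were 0.19 for MKI67 and 0.10 for TOP2A. MKI67 thus had the second highest ratio of the list and CCNA2 the lowest, although both are transcripts of cycling cells.

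**Figure D3:**
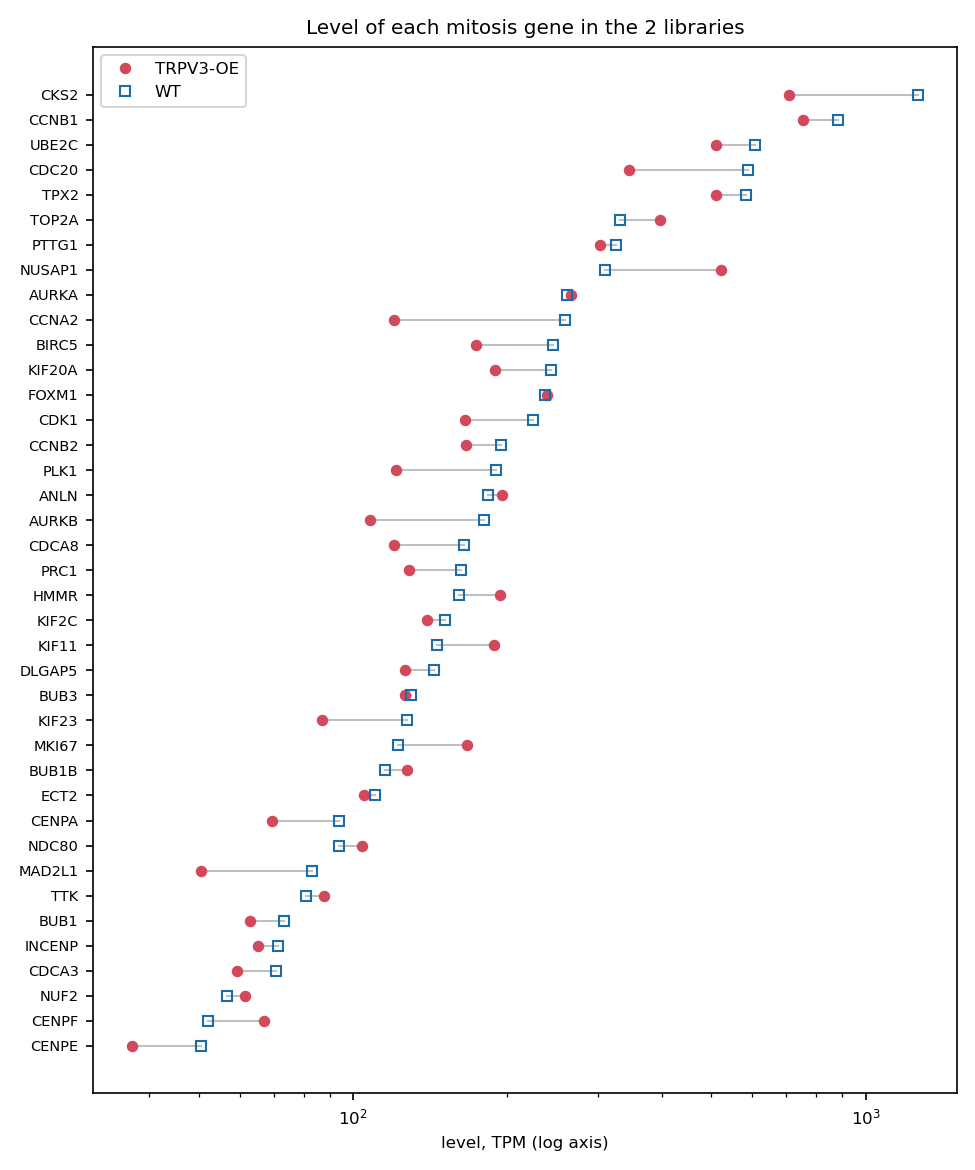
Level of each mitosis gene in TPM (log axis), with filled circles for the TRPV3-OE library and open squares for the WT library, ordered by the WT level. CKS2 leads in WT at 1264 TPM and CCNB1 in TRPV3-OE at 754 TPM, and CCNA2 shows the widest gap between the symbols.

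Levels per gene length (TPM, computed with the deposited gene lengths) ranged from 37.1 to 754 TPM in TRPV3-OE and from 50.5 to 1264 TPM in WT. CENPE was lowest in both libraries. CKS2 ranked second in TRPV3-OE at 708 TPM and first in WT at 1264 TPM, while CCNB1 ranked first in TRPV3-OE at 754 TPM and second in WT at 885 TPM. NUSAP1 ranked 3rd in TRPV3-OE at 523 TPM and 8th in WT at 310 TPM, and CCNA2 25th in TRPV3-OE at 120 TPM and 10th in WT at 259 TPM. Over the 39 genes log2 TPM in TRPV3-OE and in WT had a Pearson correlation of 0.94, beside 0.92 over 11466 measured genes with 0.1 TPM added, where all points share the same 2 libraries. The log2 ratio had almost no relation to the level (r = −0.08 over 39 genes) and a weak one to gene length (r = 0.40 over 39 genes, beside 0.05 over the other 11427 measured genes), which describes genes that share 2 libraries.

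The ratios of the members varied with those of genes around them on the chromosome. Over the 39 members the log2 ratio and the median of the 50 nearest measured genes had a Pearson correlation of 0.65, beside 0.35 over the other 11399 measured genes and 0.44 over the 8797 of those with at least 500 counts. Neighbouring genes share their own neighbours, and all share the 2 libraries. CCNA2, MAD2L1 and CENPE lie on the long arm of chromosome 4, where the other 418 measured genes of the chromosome had a median of −0.47. Local medians were −0.56 around both CCNA2 and MAD2L1 and −0.66 around CENPE, against log2 ratios of −1.17, −0.78 and −0.51. After subtraction of the local median the 3 genes stood at −0.60, −0.22 and 0.15. AURKA, TPX2 and UBE2C lie on chromosome 20, where the other 320 measured genes had a median of 0.26. The log2 ratios of these members were −0.04, −0.26 and −0.32. Around AURKA the local median was 0.25, around TPX2 −0.07 and around UBE2C 0.15, which left −0.29, −0.19 and −0.47 after subtraction.

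With the local median subtracted, 8 members stood on the other side of 0 (ANLN, BUB1B, CENPE, ECT2, KIF2C, NDC80, NUF2 and TTK), and no member passed 2-fold in either direction. The share of other measured genes past 2-fold after the same subtraction is not given, so this count has no comparison. CKS2 then differed most from its neighbours (−0.83), followed by AURKB (−0.75), KIF23 (−0.68), CDK1 (−0.62), CCNA2 (−0.60), KIF20A (−0.59) and PLK1 (−0.57). NUSAP1 stood 0.58 above its neighbours. Of the 39 members 30 (76.9%) lay below their local median, beside 49.9% of the other 11399 measured genes, with a median distance of −0.21 beside 0.00087. The part of the surrounding chromosome in these values was not tested.

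**Figure D4:**
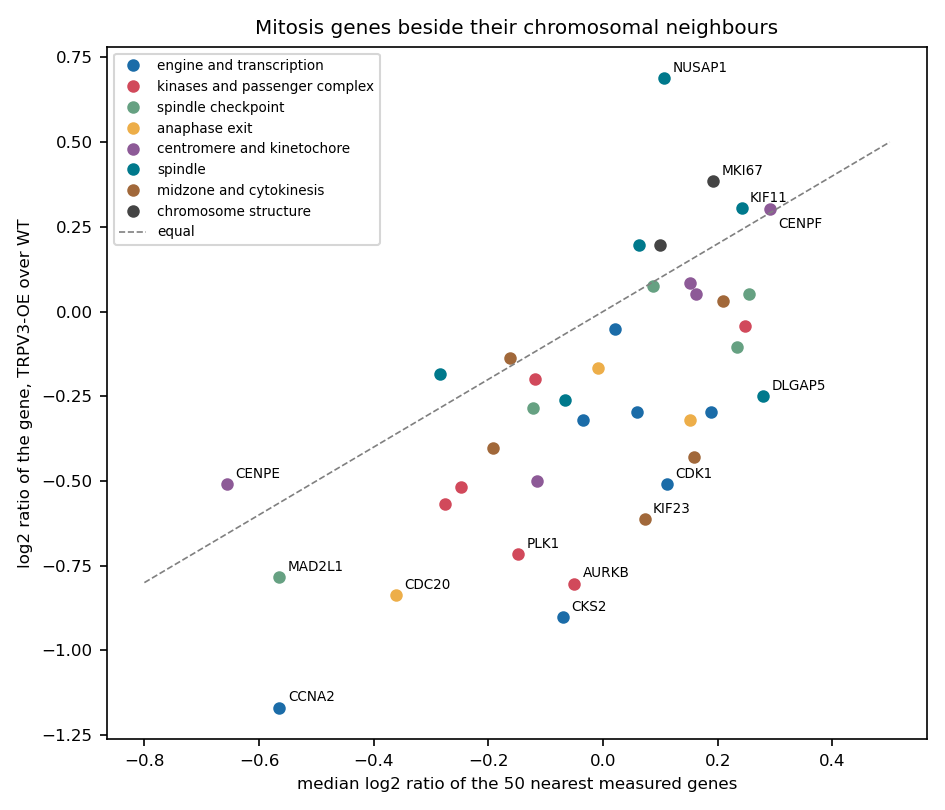
Log2 ratio of each of the 39 mitosis genes (TRPV3-OE over WT, vertical axis) against the median log2 ratio of its 50 nearest measured genes (horizontal axis), coloured by role, with a dashed line where both are equal. Of the 39 points 30 lie below the line, and CCNA2, MAD2L1 and CENPE form the left edge.

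The other 148 genes of 7 mitosis and cell cycle lists had medians between −0.26 and 0.06 by list. Of 130 measured genes in the 6 mitosis lists none was at least 2-fold lower, against 5.35% of measured genes, and 1 (CDC26) was higher, against 5.31%. At the smaller threshold 31 (23.8%) were at least 20% lower, against 26.6%, and 19 (14.6%) at least 25% higher, against 22.7%, with a median log2 ratio of −0.06. Beside these the 39 members had a median of −0.26, a difference for which no test was made.

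Among other genes of mitotic entry, PKMYT1, a membrane-bound inhibitor of CDK1, had 73.6 CPM in TRPV3-OE and 139 CPM in WT (1.89-fold lower), beside a local median of −0.59. PLK4, the kinase of centriole duplication, had 48.7 CPM in TRPV3-OE and 84.8 CPM in WT (1.74-fold lower). PLK4 lies on chromosome 4, with a local median of −0.56, the same as CCNA2 and MAD2L1. The list's median was −0.0011 over 20 genes. Other checkpoint and kinetochore genes had a median of 0.00091 over 35 genes, with CENPM (log2 ratio −0.70) and PMF1 (−0.52) farthest from 0, and 23.3% of the PMF1 exon bases overlap a readthrough gene. Subunits of the APC/C had a median of −0.06 over 18 genes. Its small subunit gene CDC26 had 84 counts in TRPV3-OE and 27 in WT, 2.99-fold higher (log2 ratio 1.58, 0.94 to 2.26), and ANAPC15 was 1.71-fold lower.

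Other spindle and motor genes had a median of −0.10 over 26 genes, with the kinesin genes KIF4A and KIF18A 1.76-fold and 1.61-fold lower, beside local medians of −0.60 and −0.70. Other cytokinesis genes had a median of −0.26 over 13 genes, of which 5 were at least 20% lower, against 26.6% of measured genes, and 0 at least 25% higher, against 22.7%. The farthest from 0 were VPS4A (−0.50) and TSG101 (−0.39) of the membrane-cutting ESCRT machinery, beside local medians of −0.27 and −0.64, so that TSG101 stood 0.25 above its neighbours. Another gene overlaps 21.0% of VPS4A exon bases. Cohesin and condensin genes had a median of −0.01 over 18 genes, with the cohesin gene SMC1A at −0.63, beside a local median of −0.68, and the condensin gene NCAPD3 at 0.78, beside a local median of −0.10. Of 16 measured genes that restrain the cycle 1 was at least 2-fold higher, against 5.31% of measured genes, and 0 lower, against 5.35%, with a median of 0.06. TFDP2, a dimer partner of E2F factors, had 66.7 CPM in TRPV3-OE and 28.6 CPM in WT (2.33-fold higher), and the CDK inhibitor p27 (CDKN1B) had 91.5 CPM in TRPV3-OE and 52.6 CPM in WT (1.74-fold higher). Other genes of this list went the other way, with 7 of the 16 ratios below 1 and a lowest log2 ratio of −0.65. Of the 16, 3 (18.75%) were at least 20% lower, against 26.6% of measured genes, and 5 (31.25%) at least 25% higher, against 22.7%.

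**Figure D5:**
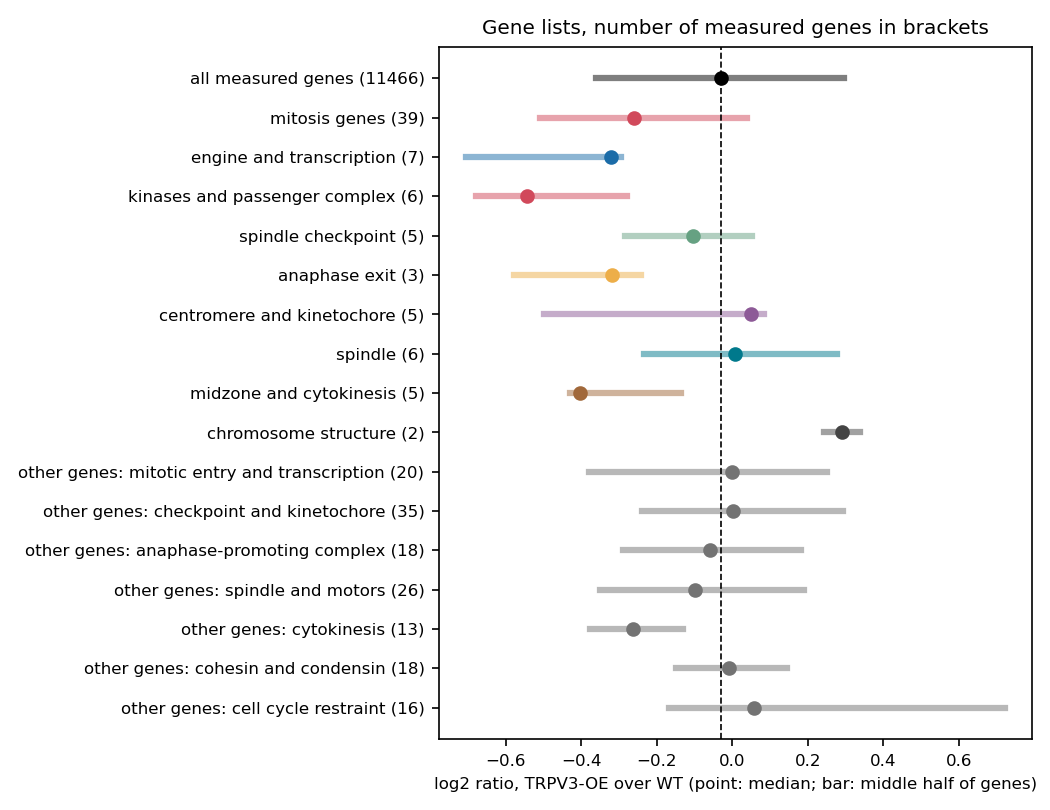
Median log2 ratio of TRPV3-OE over WT (points) and the middle 50% of genes (bars) for measured genes, the 39 mitosis genes, their 8 roles and 7 lists of other cell cycle genes, with the number of measured genes in brackets. As plotted, without subtraction of neighbours, the kinases and passenger complex lie at −0.54 and chromosome structure at 0.29, and the dashed line is the median of measured genes (−0.03).

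The counts of some members are less certain than their intervals. Reads that align to several places or lie in overlapping genes are not in the counts by default. A pseudogene or other gene holds 7.68% of the 50-base stretches of CDC20 transcripts, 5.24% of AURKA, 2.66% of BIRC5, 2.31% of MAD2L1 and 1.87% of PTTG1. Exons of other genes on the same strand cover 10.2% of BUB1B and 6.96% of CENPA. For NUSAP1 and PRC1, 54.3% and 50.7% of the stretches also stand in another GENCODE 29 locus, although no exon of theirs is shared in the deposited gene models. Without the 10 members past 1% by either measure the median log2 ratio was −0.26 (chosen after the data were seen).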

How the data were processed

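RNA-seq libraries of TRPV3-OE and WT BEAS-2B cells (1 each) were grouped by the genotype label. The authors deposited read counts per gene without normalization, from featureCounts 1.5.0-p3 set to the reverse strand, with Ensembl 87 gene models on GRCh38.p7, per the file headers. No option for multi-mapping, overlapping or paired reads is in the headers, so reads with several alignments or in overlapping genes were left out by default, which lowers genes with near-identical copies. STAR and DESeq2 are named per the submitters' processing notes. The library kit, like read length, is not given in the sources used here.

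Symbols were matched for 56948 IDs. Counts were scaled with TMM factors (1.02 for TRPV3-OE and 0.981 for WT, edgeR 4.0.16, R 4.3.3), and 1 count equals 0.0562 CPM in TRPV3-OE and 0.0584 CPM in WT. TPM used the deposited lengths, without TMM. The log2 ratio is TRPV3-OE over WT with a 95% Clopper-Pearson interval of the TRPV3-OE share of both counts, and sums carry exact Poisson intervals. A count of 0 was set to 0.5. Measured genes have at least 100 summed counts. No model was fitted, and the calculation was tested on simulated data. Local medians took the 50 nearest measured genes outside the list by midpoint. The members and lists were chosen with earlier results of these data known. All members, TRPV3 and, of each other list, called genes and the 2 largest absolute log2 ratios were named. Alternatives were scaling by total counts, DESeq2 1.42.0 or upper quartile, minimums of 1 and 500 counts, a prior of 5 counts, other neighbour numbers and left-out members. Scripts used scipy 1.17.1, numpy 2.4.6 and pandas 2.3.3 in Python 3.11.15, and figures matplotlib 3.10.9. Promoters came from RefSeq (GRCh38.p14) and 50-base stretches from GENCODE 29 transcripts.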

Additional observations from a re-analysis of the deposited data

How the results depend on the processing

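No paired analysis was possible because TRPV3-OE and WT are represented by a single library each, and no replicate could be left out. A list median counted as held while it stayed within the wide interval that its few genes give, a number of genes within 1.5 times, and a ratio within its counting interval. By this rule 167 of 180 summary values under other settings held and 13 moved. Every member had at least 500 counts, so minimums of 1 and 500 counts could not move the summaries of members, which are counted among those that held. Subtraction of the 50 nearest genes took the median of the kinases to −0.29 and of midzone and cytokinesis to −0.21. It took the group of cyclins, CDK1, CKS2, CDCA3 and FOXM1 to −0.48 and the kinetochore to −0.07. The number of members at least 25% higher was 2, and became 4 by total counts, DESeq2 size factors and upper quartile, and 1 after subtraction of the 50 nearest genes. Subtraction of the nearest genes left 0 members at least 2-fold lower, and took chromosome structure to 0.14. No share of measured genes after the same subtraction is given beside these counts. The log2 ratio of the summed CPM became −0.12 by total counts, −0.13 by DESeq2 size factors, −0.11 by upper quartile, −0.14 without the members on chromosome 4, −0.19 without CCNB1, TOP2A and TPX2, and −0.23 as TPM. A minimum of 1 count gave 2 restraint genes at least 2-fold higher. Scalings moved the median of measured genes by at most 0.0582. Of 195 values of single members 148 held, 44 moved and 3 with an interval clear of 0 changed sign. Those that held include 39 with a prior of 5 counts, which is small beside the counts of every member. The sign changed for KIF2C (0.10), ECT2 (0.025) and CENPE (0.15) after subtraction of the nearest genes. ANLN, BUB1B, NDC80, NUF2 and TTK, whose intervals held 0, also changed sign there, as FOXM1 and AURKA did by total counts and upper quartile. The cause of these moves was not tested. Counting intervals of members were 0.0764 to 0.295 wide on the log2 scale, and the 7 ratios whose interval held 0 were not distinguishable from 1 at this depth.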
